A study of Mus musculus with 10 samples.

Results

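Imprinted genes are transcribed mainly from the copy inherited from 1 parent, and 44 of them, Nnat and Grb10 among them, were followed here in the livers of mice with a LIRKO father or a LIRKO mother. They were taken by symbol from a list of imprinted genes, and all 44 were found among the 46071 gene rows of the deposited count table. Textbook knowledge gives 21 as expressed from the maternal allele and 22 from the paternal allele, in the tissues where their imprinting is known. For a given member those tissues need not include liver. The remaining member, Gnas, has transcripts of either kind.

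The study asked, by its design, whether a parent without hepatic insulin receptor leaves a mark on the liver transcriptome of its offspring. LIRKO mice are insulin receptor-IRlox/lox; Albumin-Cre+/-, so that Cre, driven by the hepatocyte promoter of the albumin gene, removes the floxed insulin receptor in the liver. Control parents are insulin receptor-IRlox/lox; Albumin-Cre-/- and came from controls bred together over several generations. The control group (4 libraries, numbered 1 to 4) had 2 control parents, the FL group (3 libraries, 5 to 7) a LIRKO father and a control mother, and the ML group (3 libraries, 8 to 10) a LIRKO mother and a control father. All parents and offspring thus carry the floxed allele, and Cre itself can pass to the offspring of a LIRKO parent. The Cre status of the sampled offspring, their sex, age, litter and diet are not given in the labels. The labels do not state whether libraries came from different animals, and the tests therefore rest on library-to-library spread. Counts cover both parental copies of a gene together, and no allele was read.

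Imprinting is set in the germ line, where DNA methylation is placed on control regions in either the egg or the sperm and kept through fertilisation by ZFP57, TRIM28 and DNMT1. Many imprinted genes act in fetal growth: Igf2 is a growth factor, Igf2r clears it, and Grb10 and Cdkn1c restrain growth signals. In mouse liver several of them, Igf2, H19 and Dlk1 included, are abundant before birth and are silenced in the weeks after it.

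The 250 bases before a RefSeq transcription start are shown for 4 members on GRCm38.p6. Nnat and Grb10 were taken because they give the set its name. Kcnq1ot1 and Plagl1 were taken because they had the lowest p among the paternally expressed members between FL and ML. Capitals mark CG, the dinucleotide whose methylation carries an imprint. No methylation was measured here. The 4 windows lie at chr2:157559828-157560077 (plus strand, Nnat), chr7:143296548-143296797 (minus strand, Kcnq1ot1), chr10:13090582-13090831 (plus strand, Plagl1) and chr11:12037421-12037670 (minus strand, Grb10).
Nnat: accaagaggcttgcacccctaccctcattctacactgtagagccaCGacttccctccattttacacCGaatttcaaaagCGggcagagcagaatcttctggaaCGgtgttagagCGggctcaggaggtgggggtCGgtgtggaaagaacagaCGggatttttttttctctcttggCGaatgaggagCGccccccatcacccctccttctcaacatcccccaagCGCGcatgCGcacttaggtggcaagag
Kcnq1ot1: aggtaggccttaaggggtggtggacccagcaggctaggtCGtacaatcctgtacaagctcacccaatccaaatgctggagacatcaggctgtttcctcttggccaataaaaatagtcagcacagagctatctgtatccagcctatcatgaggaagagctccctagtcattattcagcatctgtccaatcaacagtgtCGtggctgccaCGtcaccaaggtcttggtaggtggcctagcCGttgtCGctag
Plagl1: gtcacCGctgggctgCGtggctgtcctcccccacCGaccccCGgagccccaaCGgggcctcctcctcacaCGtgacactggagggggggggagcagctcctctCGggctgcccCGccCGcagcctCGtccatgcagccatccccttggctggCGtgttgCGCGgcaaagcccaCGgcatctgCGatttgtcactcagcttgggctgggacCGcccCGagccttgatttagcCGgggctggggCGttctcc
Grb10: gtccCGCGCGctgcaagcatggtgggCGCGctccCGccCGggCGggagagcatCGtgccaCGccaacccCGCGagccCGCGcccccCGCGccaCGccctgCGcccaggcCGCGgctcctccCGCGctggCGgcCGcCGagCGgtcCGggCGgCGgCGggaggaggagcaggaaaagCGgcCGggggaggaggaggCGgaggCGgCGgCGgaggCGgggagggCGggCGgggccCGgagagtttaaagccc

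The Grb10 window shown held 40 CG, a number reached by 1.31% of the 32851 promoter entries in the RefSeq table. The other Grb10 entry, at chr11:12027972-12028221, held 8 CG. The first 30 bases after its start were in a GENCODE transcript of Grb10, while those of the entry shown were not. The Plagl1 window held 19, that of Nnat 12 and that of Kcnq1ot1 5. RefSeq entries were found for 38 of the 44 members (56 entries), and their median was 10.5 CG against 6 over all entries. The 22 entries of maternally expressed members had a median of 13.5 and the 30 of paternally expressed members a median of 8. The hexamer TGCCGC, which ZFP57 binds when it is methylated, was searched on both strands. It occurred in 9 of the 56 entries (16.1%), in 8 members, 5 paternal and 3 maternal, and in 8.68% of all entries. The 9 include Mest windows beginning at 30737800 and 30737803, which overlap almost fully. The hexamer holds a CG and member entries are richer in CG, so the shares do not compare like with like. Of the 4 windows shown, that of Plagl1 held it. These are matches of letters in short windows, not sites.

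The livers expressed a broad range of imprinted genes, and none of the 32 that could be tested passed (adjusted p under 0.05) in any comparison. Levels are given in CPM, counts scaled to the size of the library with edgeR's TMM factors. Of the 44 members, 32 had enough counts to be tested and 12 did not. Among the 32, 12 had a mean of at least 10 CPM, 12 lay between 1 and 10 CPM and 8 below 1 CPM. Per kb of exon, the most abundant were Cd81, a tetraspanin of the cell surface, at 74.3 CPM per kb, and Slc22a18, an organic cation transporter-like protein, at 45.9 CPM per kb. They were followed by H13, the signal peptide peptidase, at 11.4 CPM per kb, Ddc, which makes dopamine and serotonin, at 9.70 CPM per kb, and Tssc4 at 8.18 CPM per kb. The steadiest over the 10 libraries were Cd81 (highest over lowest library 1.33), Blcap (1.42) and Snrpn (1.52). The most variable of the tested members with a count in every library were Nnat (42.1), Meg3 (35.8), Gnas (17.6), Commd1 (11.2) and Kcnq1ot1 (10.2).

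**Figure D1:**
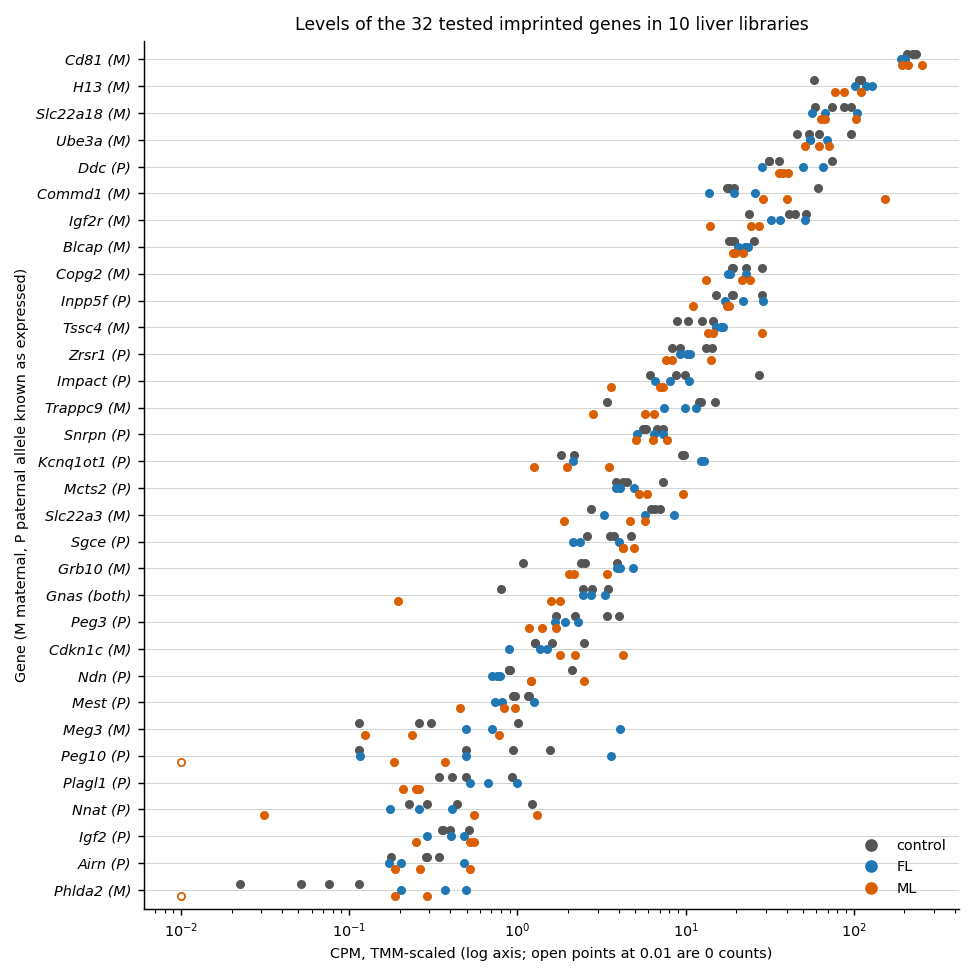
Level of each of the 32 tested members in each of the 10 libraries, as CPM on a log axis, with points coloured by group and genes ordered by mean level. Cd81 is at the top with 192 to 256 CPM, and Phlda2, at the bottom, has all 4 controls below the 3 FL libraries.

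The 12 members too low to test were Sfmbt2, Zdbf2, Asb4, Nap1l5, Zim1, Usp29, Magel2, H19, Ascl2, Dlk1, Rian and Mirg. Dlk1, Rian, Magel2 and Usp29 had 0 counts in all 10 libraries, which allows at most 3 counts over all of them, or 0.0093 CPM for the pooled libraries. Zdbf2, Ascl2 and Zim1 had 1 count each, in ML 8, ML 8 and ML 10. The other 5 held more than 1 count. Intervals of this kind cover counting error alone.

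The share of members that differed was near that of all genes. In FL against control, edgeR's quasi-likelihood test with Benjamini-Hochberg adjustment called 0 of 32 members and 0.0135% of the 14820 genes tested. In ML against control it called 0 of 32 and 0% of all genes, and in FL against ML 0 of 32 and 0.00675%. DESeq2 and limma-voom also called 0 members in each comparison, and so did every other alternative tried. The lowest adjusted p of a member was 0.983, 0.302 and 0.238 in the 3 comparisons. At an unadjusted p under 0.05 there were 2 members in FL against control, both higher (6.25% of those tested, against 3.53% of all genes, of which 1.63% higher and 1.9% lower). They are Meg3 and Phlda2, and Phlda2 passed the low-count filter through FL and ML libraries alone. ML against control had 6, with 1 higher and 5 lower (18.8%, against 16.1% of all genes, of which 8.81% higher and 7.33% lower), and FL against ML had 8, with 5 higher and 3 lower in FL (25%, against 20% of all genes, of which 7.59% higher and 12.4% lower). Both comparisons with controls use the same 4 control libraries, and FL against ML uses the same FL and ML libraries again, so the 3 sets of values are not independent.

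Over the 32 members the median log2 fold change was -0.037 for FL against control (all genes -0.049), -0.073 for ML against control (all genes -0.047) and 0.21 for FL against ML (all genes 0.041). The last of these medians was -0.0061 when a surrogate variable, a hidden factor estimated from the counts, was fitted. Neither parental class lay on 1 side of 0. Of the 15 maternally expressed members tested, 7 lay above 0 and 8 below in FL against control, and 5 above and 10 below in ML against control. Of the 16 paternally expressed members, 6 lay above and 10 below in FL, and 7 above and 9 below in ML. Over all genes, 55.3% lay below 0 in FL and 52.9% in ML. The 95% interval lay within a 2-fold change either way for 12 of the 32 members in FL against control, 9 in ML against control and 8 in FL against ML. For the others a 2-fold difference was within the interval at this spread.

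**Figure D2:**
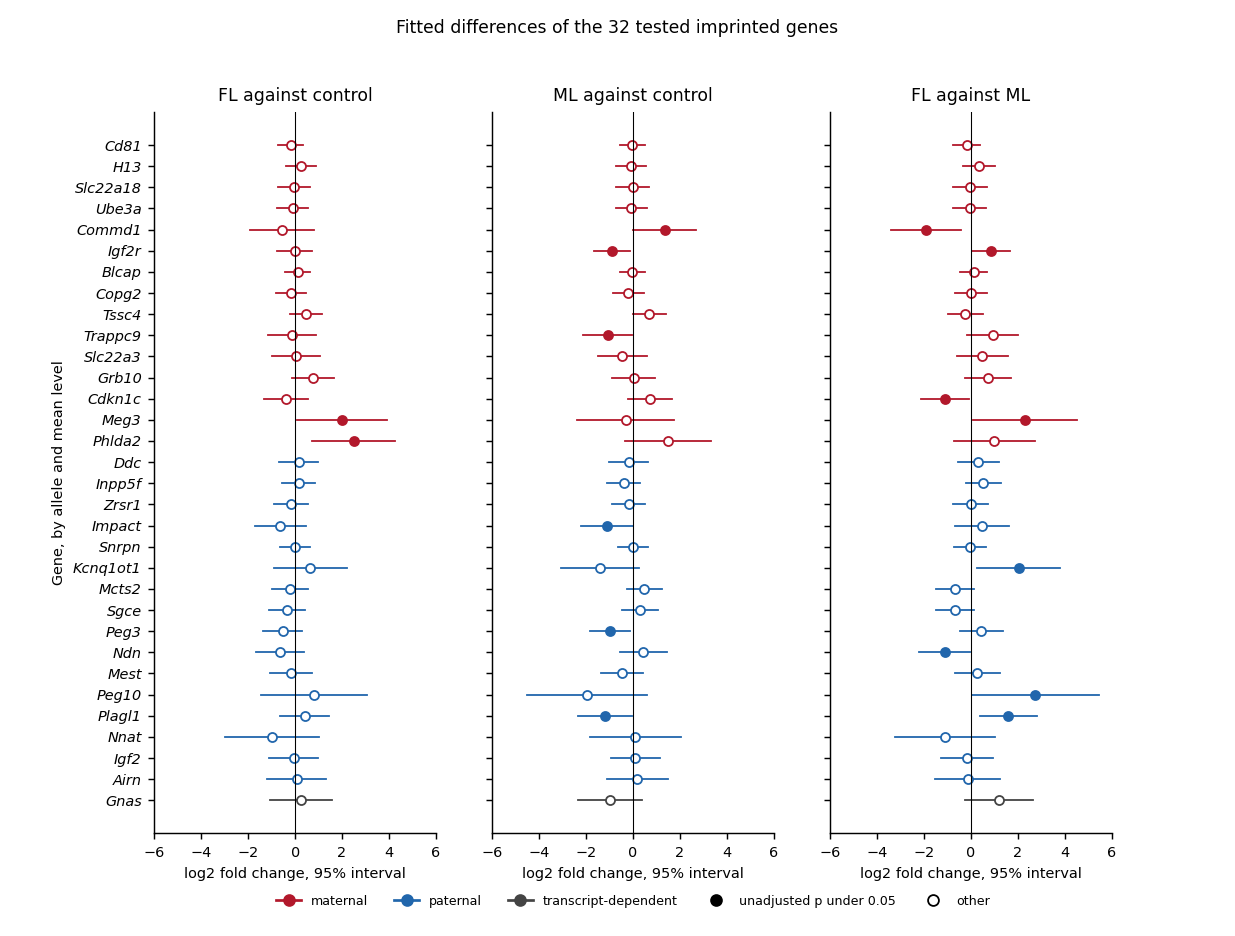
Fitted log2 fold change (point) and 95% interval (line) of the 32 tested members in the 3 comparisons, coloured by the allele known to be expressed, with filled points for an unadjusted p under 0.05. There are 2, 6 and 8 filled points from left to right, and none passed after adjustment over all genes.

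Libraries differed within groups as well as between them. Totals ran from 18655506 counts in control 1 to 39379940. On the first principal component (53.2% of the variance) the ML libraries lay at -13.9, -139.6 and -32.6, the FL libraries at 61.5, 43.7 and 8.06, control 1 at -77.3 and the other controls between 32.6 and 67.8. Every FL library thus lay above every ML library on it. A surrogate variable may therefore take up part of the difference between FL and ML itself, which was not tested. Short genes (exons under 1000 bp) were 1.67 log2 units over their own average in ML 9 and 0.51 in control 1, as medians. This deviation was higher in every ML library (-0.10, 1.67 and 0.34) than in every FL library (-0.56, -0.26 and -0.26), so this difference and FL against ML cannot be told apart. ML 9 was the lowest of the 10 libraries for 13 of the 32 members (40.6%, against 26.1% of all genes) and the highest for 8 (25%, against 28.9%). The labels give no batch. Hepatocyte markers were high in every library, with a sum of 58250 to 105700 CPM over the 6. The sum of the 6 Kupffer cell markers was 193 to 380 CPM in controls, 194 to 281 CPM in FL and 187 to 876 CPM in ML, with the highest in ML 9. The 6 islet markers summed to at most 0.0741 CPM in a library, with Ins1, Iapp and Pyy at 0. The 6 acinar markers summed to 0.153 to 1.31 CPM in controls, 0.376 to 0.553 CPM in FL and 0.558 to 3.98 CPM in ML, with Prss2 and Clps at 0. Acinar Ctrb1 reached 1.89 CPM in ML 8 and Cela2a 3.91 CPM in ML 9. The 6 adipocyte markers summed to 15.1 to 45.8 CPM in controls, 11.5 to 28.1 CPM in FL and 25.0 to 56.1 CPM in ML. Of the 4 that were tested, 3 were lower in FL at an unadjusted p under 0.05 against control (median of the 4 -2.16) and against ML (median -2.88), and none passed. Over all genes, 1.9% were lower in FL at such a p against control and 12.4% against ML. Adipoq, their defining gene, was at 0 in every FL library and in control 1 and control 4, with 1 count each in control 2 and ML 10. It was at 2.43 CPM in control 3, at 1.71 CPM in ML 8 and at 1.96 CPM in ML 9. Adipoq entered the test through control 3, ML 8 and ML 9 alone, so its fold and p support nothing on their own. The part of these cell types in the results below was not tested. In bulk liver, fewer cells of a type and less RNA per cell cannot be told apart.

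Nnat, a paternally expressed proteolipid of the endoplasmic reticulum known from brain and islets, was barely present (ENSMUSG00000067786, chromosome 2, 157560078 to 157562522, inside the Blcap gene on the opposite strand). Controls had 4, 48, 17 and 13 counts, FL libraries 11, 9 and 6, and ML libraries 21, 20 and 1. The groups overlapped, and control 2 and ML 9 were highest, at 1.22 and 1.30 CPM. Controls averaged 0.545 ± 0.460 CPM (SD, n = 4), FL 0.281 ± 0.118 CPM (SD, n = 3) and ML 0.629 ± 0.640 CPM (SD, n = 3). Against control, FL lay at a log2 fold change of -0.99 (standard error, SE, 0.91) and ML at 0.11 (SE 0.88). The FL value was -0.23 without control 2, and the ML value was -0.88 without ML 9. FL against ML was at -1.09 (SE 0.98), at -0.11 when ML 9 was left out and at -0.044 with limma-voom. Blcap, its host gene and a maternally expressed neighbour, stayed between 18.1 and 25.6 CPM in all 10 libraries. Nnat counts were between 0.00163 and 0.0675 of the Blcap counts of the same library.

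Grb10, an adaptor that binds the insulin and IGF1 receptors and dampens their signal, was present at a few CPM (ENSMUSG00000020176, chromosome 11, 11930508 to 12038683). It had 1.08, 3.92, 2.41 and 2.51 CPM in controls, 4.85, 3.91 and 4.08 CPM in FL and 3.42, 2.02 and 2.17 CPM in ML. The 3 FL libraries were close together and above every ML library, while control 2 reached the lowest FL library. Against control, FL lay 0.77 higher on the log2 scale (SE 0.41, 95% interval -0.13 to 1.68) and ML 0.028 higher (SE 0.42). FL against ML was at 0.75 (SE 0.45), adjusted p 0.333 by edgeR. Control 1, the shallowest library, was the lowest, and without it the FL value was 0.54. Adding a surrogate variable to the fit left 0.011 between FL and ML, and with it ML against control was at 0.71.

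**Figure D3:**
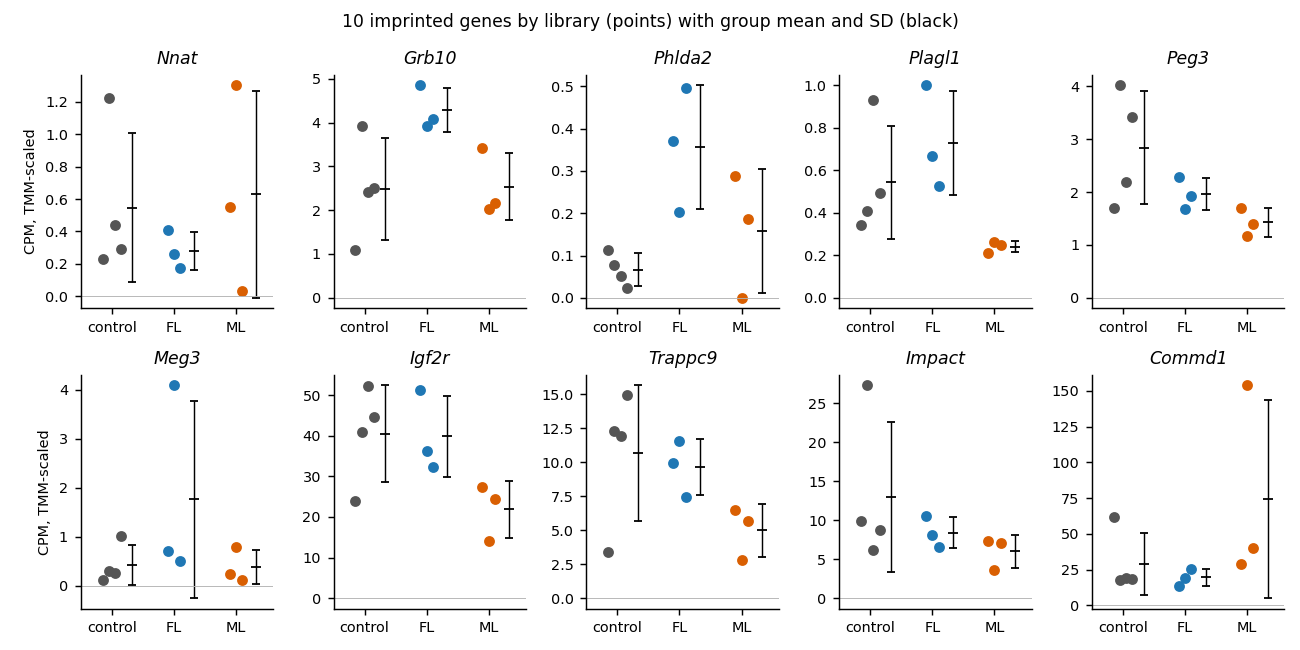
CPM of 10 members in each library (coloured points) with the group mean and SD (black), on a linear axis for each gene. The 3 FL libraries lie above all 4 controls for Phlda2, the 3 ML libraries lie at 0.210 to 0.261 CPM for Plagl1, and single libraries stand out for Meg3 (FL 6), Impact (control 2) and Commd1 (ML 9).

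The IGF2 system itself was low on the ligand side and present on the receptor side. Igf2 (chromosome 7, 142650766 to 142666816) had 7, 14, 14 and 23 counts in controls, 13, 14 and 10 in FL and 21, 8 and 8 in ML. All 10 libraries lay between 0.248 and 0.552 CPM, the level of a gene almost silent in liver. Against control its log2 fold change was -0.064 (SE 0.48) for FL and 0.093 (SE 0.48) for ML. Igf2r, the maternally expressed receptor that takes IGF2 to the lysosome (chromosome 17, 12682406 to 12769664), had 23.9, 41.0, 52.2 and 44.7 CPM in controls, 51.3, 36.2 and 32.2 CPM in FL and 27.3, 14.0 and 24.5 CPM in ML. Every ML library lay below every FL library, and control 1 lay among the ML libraries. ML against control was at -0.88 (SE 0.35) on the log2 scale and FL against ML at 0.86 (SE 0.37), adjusted p 0.302 and 0.240 by edgeR. A surrogate variable in the fit brought these to -0.31 and 0.17. Airn, the paternal antisense RNA that silences Igf2r in cis, had 6 to 13 counts per library, so that Igf2r counts were 26.9 to 230 times those of Airn. Slc22a3, an organic cation transporter of the same domain, ranged from 1.89 CPM in ML 9 to 8.48 CPM in FL 6, with no group apart.

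H19, the maternal long RNA next to Igf2 (chromosome 7, 142575529 to 142578143), had 1, 0, 4 and 7 counts in controls, 1, 7 and 4 in FL and 12, 94 and 3 in ML. It stood out in ML 9 alone, at 6.13 CPM against 0 to 0.315 CPM in the 9 others. H19 is known to stay active in adult skeletal muscle. The 6 skeletal muscle markers summed to 353 CPM in ML 9 and to 0.482 to 1.14 CPM in the 9 others. In ML 9 they included Mylpf at 122 CPM, Ckm at 89.3 CPM, Tnnt3 at 79.4 CPM and Acta1 at 49.6 CPM. H19 and the muscle genes were high in the same library, and the part of muscle RNA in the H19 value was not tested.

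**Figure D4:**
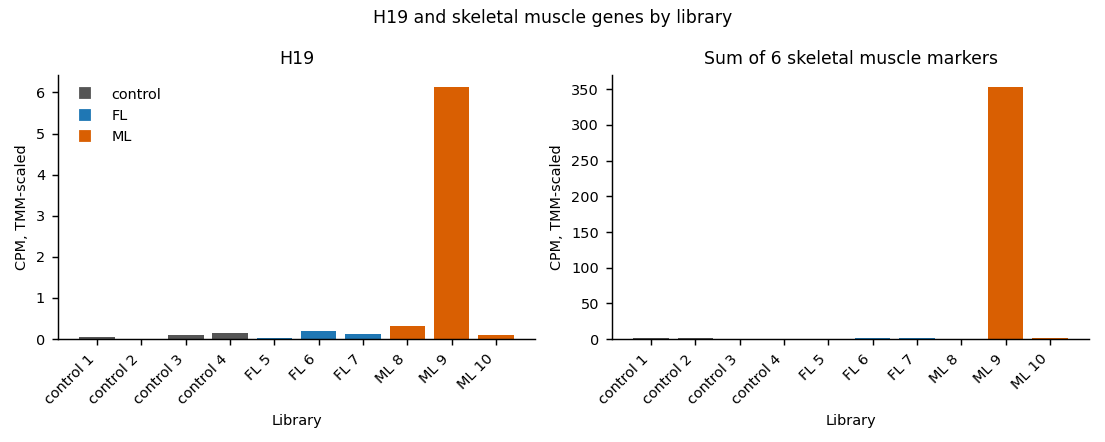
CPM of H19 (left) and the summed CPM of 6 skeletal muscle markers (right) in each library, as bars from 0 coloured by group. ML 9 holds 6.13 CPM of H19 and 353 CPM of the muscle markers, and no other library passes 0.315 and 1.14 CPM.

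In the Kcnq1 domain of chromosome 7, the paternal RNA Kcnq1ot1 is known to silence its maternally expressed neighbours in cis. Kcnq1ot1 (chromosome 7, 143203458 to 143296549) had 38, 385, 70 and 423 counts in controls, 335, 445 and 74 in FL and 48, 54 and 64 in ML. Its libraries made a high and a low set that crossed the groups: control 2, control 4, FL 5 and FL 6 lay at 9.48 to 12.9 CPM and the 6 others at 1.26 to 3.52 CPM. FL against ML was at 2.04 (SE 0.81) on the log2 scale, adjusted p 0.238 by edgeR, and at 0.67 once each library's trend with gene length and GC was taken out. The same 4 libraries were highest for Neat1 and Malat1, long RNAs kept in the nucleus that were looked up after these values were seen. Neat1 was at 115 to 443 CPM in those 4 and 11.0 to 29.0 CPM in the rest, and Malat1 at 319 to 681 CPM and 17.7 to 71.8 CPM. What part the share of such nuclear RNA has in the Kcnq1ot1 values was not tested.

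**Figure D5:**
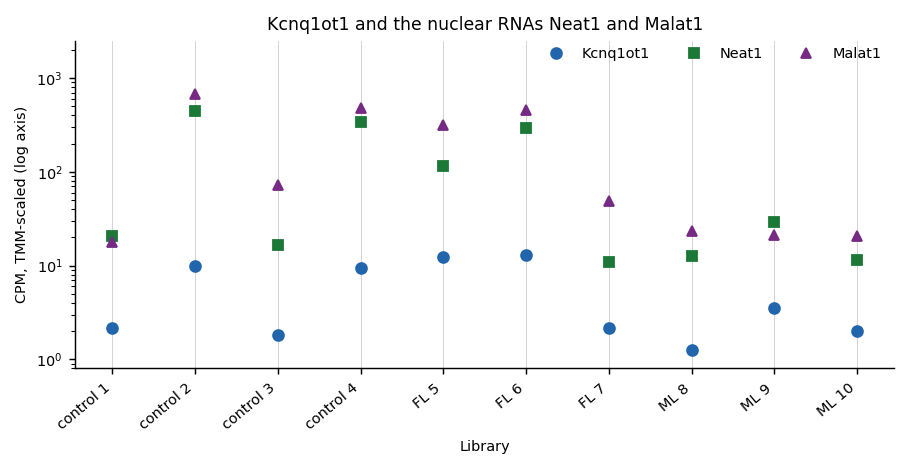
CPM on a log axis of Kcnq1ot1 (circles), Neat1 (squares) and Malat1 (triangles) in each library. Control 2, control 4, FL 5 and FL 6 are highest for each of the 3 RNAs.

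Of its maternally expressed neighbours, Cdkn1c and Phlda2 were low. Cdkn1c, a cyclin-dependent kinase inhibitor (chromosome 7, 143458339 to 143461050), had 2.51, 1.27, 1.60 and 1.28 CPM in controls, 0.889, 1.51 and 1.37 CPM in FL and 1.79, 4.24 and 2.20 CPM in ML. All 3 ML libraries lay above all 3 FL libraries, where FL against ML was at -1.11 (SE 0.47) on the log2 scale. The value was -0.68 when ML 9 was left out and -0.24 when a surrogate variable was fitted. Phlda2, which limits placental growth (chromosome 7, 143501545 to 143503150), had 2, 3, 2 and 1 counts in controls, 10, 7 and 17 in FL and 11, 0 and 6 in ML. The FL libraries did not overlap the controls: FL averaged 0.356 ± 0.147 CPM (SD, n = 3) and controls 0.0661 ± 0.0388 CPM (SD, n = 4). FL was 2.49 higher on the log2 scale (SE 0.80), adjusted p 0.983 by edgeR. With at most 3 counts in a control, it entered the test through the other groups, and it was not tested when only FL and control were fitted. Its fold and p therefore support nothing on their own.

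Cd81, Tssc4 and Slc22a18 were the abundant members of that cluster, while Ascl2 had 1 count in all. Cd81 had 207, 225, 226 and 235 CPM in controls, 192, 201 and 194 CPM in FL and 193, 256 and 212 CPM in ML. All FL libraries lay below all controls, at a log2 fold change of -0.19 (SE 0.24). Tssc4, a small nuclear ribonucleoprotein chaperone, had 14.6, 10.3, 8.93 and 12.6 CPM in controls, 16.6, 16.2 and 15.1 CPM in FL and 14.6, 28.4 and 13.5 CPM in ML. The FL libraries lay above the controls, at 0.46 (SE 0.32), and ML against control was at 0.70 (SE 0.32) with ML 9 highest. Phlda2, Tssc4, Cd81 and Ndn were the 4 of 32 members without overlap between FL and control, where 5.71% of all genes had none (2.79% with FL higher and 2.92% with FL lower). Slc22a18 ranged from 56.4 to 105 CPM with no group apart.

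At the Dlk1 and Meg3 locus of chromosome 12 the paternal coding gene was silent and the maternal RNAs were low. Meg3 (chromosome 12, 109541001 to 109571726) had 2, 12, 10 and 45 counts in controls, 19, 141 and 17 in FL and 9, 12 and 4 in ML. FL 6 was far above the rest at 4.08 CPM, and the other 2 FL libraries lay within the range of the controls. FL lay 2.00 above control (SE 0.88) and 2.32 above ML (SE 1.01) on the log2 scale. Leaving out FL 6 gave 0.45 and 0.76. Mirg, further along the same locus, was too low to test and was also highest in FL 6, with 12 of its 0 to 12 counts per library.

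Plagl1 and Peg3, paternally expressed zinc finger factors known as regulators of growth and of other imprinted genes, were the 2 members whose ML libraries all lay below all controls (5.03% of all genes had no overlap, 2.86% with ML lower and 2.17% with ML higher). Plagl1 (chromosome 10, 13060504 to 13131694) had 0.342, 0.408, 0.931 and 0.493 CPM in controls, 1.00, 0.666 and 0.524 CPM in FL and 0.210, 0.261 and 0.248 CPM in ML. ML was lowest in all 3 libraries, on 4 to 8 counts each. ML against control was at -1.20 (SE 0.53) and FL against ML at 1.60 (SE 0.56) on the log2 scale, adjusted p 0.305 and 0.238 by edgeR. With each library's length and GC trend taken out these were -0.76 and 1.08, and the first was -0.81 when control 3 was left out. The sign was the same in all 19 alternatives that tested it, in either comparison. With at most 8 counts in an ML library, Plagl1 entered the test through the control and FL libraries alone, where it is higher. Its folds, p and sign therefore support nothing on their own. Peg3 (chromosome 7, 6703892 to 6730431) had 1.71, 4.03, 2.20 and 3.43 CPM in controls, 2.30, 1.68 and 1.92 CPM in FL and 1.71, 1.17 and 1.40 CPM in ML. The gap between ML 8 and control 1 was under the third digit. ML against control was at -0.99 (SE 0.39), and at -0.42 with the length and GC trend of each library taken out.

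Trappc9, Impact and Commd1 complete, with Igf2r, Plagl1 and Peg3, the 6 members at an unadjusted p under 0.05 in ML against control. Trappc9, a subunit of a vesicle tethering complex (chromosome 15, 72589620 to 73061204), had 3.42, 12.3, 11.9 and 14.9 CPM in controls, 9.93, 11.6 and 7.46 CPM in FL and 6.51, 2.80 and 5.71 CPM in ML. The ML libraries were low together with control 1. ML against control was at -1.08 (SE 0.48) on the log2 scale, and a surrogate variable brought it to -0.089. With the length and GC trend taken out it was at -0.50. Impact, a brake on the GCN2 kinase, had 9.91, 27.3, 6.18 and 8.72 CPM in controls, 10.5, 8.08 and 6.58 CPM in FL and 7.38, 3.59 and 7.04 CPM in ML. Control 2 was far above all others, and the log2 fold change of -1.11 (SE 0.51) was -0.45 without it. Commd1, a copper and endosomal trafficking factor (chromosome 11, 22896136 to 22982382), had 61.5, 17.5, 19.3 and 18.2 CPM in controls, 13.7, 19.5 and 25.7 CPM in FL and 28.8, 154 and 40.1 CPM in ML. ML 9 and control 1 were the highest libraries. ML against control was at 1.35 (SE 0.61) on the log2 scale, at 0.26 when ML 9 was left out and at -0.049 when a surrogate variable was fitted. The matching values for FL against ML were -1.91 (SE 0.68), -0.82 and -0.023. With the length and GC trend taken out the differences were larger, at 1.71 and -2.35. Zrsr1, the paternally expressed splicing factor gene inside Commd1, lay between 7.69 and 14.4 CPM with no group apart.

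The count of 6 members in ML against control depended on single libraries. Leaving out ML 9 gave 1, control 4 gave 1, control 1 gave 9, and control 1 and ML 9 together gave 8. Fitting a surrogate variable gave 0. Over all genes the 2392 at such a p became 669, 1114, 5177, 4188 and 379 in the same order. For FL against ML the count of 8 became 3 when ML 9 was left out, 3 when FL 5 was left out and 0 when a surrogate variable was fitted. Over all genes the 2964 became 733, 882 and 270.

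Clusters on chromosomes 6 and 7 held both variable and steady members. Peg10, a retrotransposon-derived gene of the placenta (chromosome 6, 4747306 to 4760517), had 2, 37, 60 and 22 counts in controls, 97, 4 and 17 in FL and 7, 0 and 12 in ML. FL 5 was the highest library and FL 6 among the lowest. FL against ML was at 2.75 (SE 1.23) on the log2 scale, and at 0.59 when FL 5 was left out. Its neighbour Sgce, a sarcoglycan, had 4.73, 3.74, 3.57 and 2.58 CPM in controls, 4.04, 2.14 and 2.36 CPM in FL and 4.23, 4.24 and 4.96 CPM in ML. FL lay below ML without overlap at -0.66 (SE 0.37), the opposite sign to Peg10, which shares its imprinting control region. Ndn, a paternally expressed gene of the Prader-Willi region (chromosome 7, 62346569 to 62350262), had 2.11, 0.891, 0.906 and 0.897 CPM in controls, 0.704, 0.753 and 0.786 CPM in FL and 1.21, 2.48 and 1.21 CPM in ML. FL libraries were the 3 lowest of all 10. FL lay at -0.66 (SE 0.47) against control and at -1.10 (SE 0.50) against ML on the log2 scale. The last value was -0.71 when ML 9 was left out and -0.19 when a surrogate variable was fitted. Snrpn, from the same region, stayed at 5.09 to 7.72 CPM. Against control its log2 fold change was -0.0075 (SE 0.29) for FL and 0.011 (SE 0.29) for ML. Ube3a, its maternally expressed neighbour in brain, ran from 45.8 to 95.9 CPM, with control 1 highest.

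On chromosome 2, Gnas, which encodes the stimulatory G protein subunit, had 0.798, 3.44, 2.46 and 2.78 CPM in controls, 3.33, 2.46 and 2.74 CPM in FL and 1.79, 0.196 and 1.58 CPM in ML. ML lay below FL without overlap, at 1.21 (SE 0.66) in FL against ML, and control 1 lay among the ML libraries. Mcts2, a paternal retrogene inside H13, had 7.29, 4.25, 3.88 and 4.48 CPM in controls, 4.07, 3.85 and 4.95 CPM in FL and 5.31, 9.65 and 5.86 CPM in ML, and its FL libraries lay below ML at -0.69 (SE 0.37). H13 had 58.1, 111, 111 and 107 CPM in controls, 118, 129 and 102 CPM in FL and 76.9, 110 and 87.6 CPM in ML, with overlap between all groups. In all, 10 of 32 members had no overlap between FL and ML, 5 higher and 5 lower in FL, where 31.7% of all genes had none (16.6% with FL higher and 15.1% with FL lower). They were Gnas, Plagl1, Grb10, Trappc9 and Igf2r on the higher side and Mcts2, Sgce, Ndn, Cdkn1c and Commd1 on the lower side.

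The remaining tested members, Mest, Copg2, Inpp5f, Ddc, Slc22a18, Slc22a3, Blcap, H13, Ube3a, Zrsr1, Airn and Igf2, had an unadjusted p above 0.05 and overlapping groups in all 3 comparisons, as did Snrpn. Ddc had 31.5, 31.5, 36.0 and 74.4 CPM in controls, 28.4, 65.7 and 50.2 CPM in FL and 38.2, 40.6 and 36.2 CPM in ML, and control 4 and FL 6 were highest. Slc22a18 was highest in FL 6 and ML 9. Part of the exon sequence of some members is shared with a gene on the same or the other strand: 27.3% of Snrpn (Snurf), 23.1% of Mest and 17.8% of Copg2 (each with the other), 22.0% of Gnas, 11.9% of Commd1 and 11.9% of Tssc4. For Slc22a3 the share was 9.3%, with Plg on the other strand. No source used here gives the strand setting of the counting, so these values, and those of Airn and Kcnq1ot1 inside other genes, are uncertain.

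RNAs for factors that place, keep or remove DNA methylation at imprints were counted from a further list, and none passed. Of the 17 listed, 14 were tested, and 13 of these lay below 0 in ML against control at a median log2 fold change of -1.05 (all genes -0.047), 6 of them lower at an unadjusted p under 0.05 (42.9% of the 14, where 7.33% of all genes were lower at such a p). In FL against control 9 lay above and 5 below 0 with a median of 0.17, and 0 were at such a p. In FL against ML all 14 lay above 0 with a median of 0.97 (all genes 0.041). Dnmt3a, a de novo DNA methyltransferase, had 4.96 CPM in control 1, 15.7 to 20.1 CPM in the other controls, 25.1, 14.1 and 10.7 CPM in FL and 6.59, 4.56 and 5.89 CPM in ML. Control 1 lay among the low ML libraries. ML against control was at -1.42 (SE 0.48) on the log2 scale, adjusted p 0.302 by edgeR. Tet3, which oxidises methylcytosine, was at -1.78 (SE 0.65), Tet2 at -1.26 (SE 0.56) and Arid4a at -1.26 (SE 0.46) in the same comparison. Control 1 lay among the ML libraries for Tet3, Tet2 and Arid4a as well. Dnmt1, which copies methylation at replication, was at 1.38 (SE 0.52) in FL against ML and at -1.03 (SE 0.49) in ML against control. In the latter Trim28 was at -0.43 (SE 0.35) and Zfp57 at -1.07 (SE 1.01). Zfp445, the 1 gene above 0, was at 0.86 (SE 0.89). None of these 4 was at an unadjusted p under 0.05 in ML against control. The 6 in ML against control became 1 when ML 9 was left out, 8 when control 1 was left out and 2 when a surrogate variable was fitted. Over all genes the 2392 at such a p became 669, 5177 and 379 in the same order. The medians in ML against control and in FL against ML became -0.44 and 0.27 with the surrogate variable. With 1 library left out they were -1.23 to -0.74 and 0.82 to 1.24. Over the alternatives other than leaving out 1 library, they were -1.05 to -0.44 and 0.27 to 1.09. Those alternatives include taking out each library's length and GC trend. Of the 6, Dnmt3a, Tet2, Tet3 and Arid4b have 16642 to 16965 bp of exon, Arid4a 5615 and Ctcfl 3217. Short genes were high in ML 9 and control 1, and the part of exon length in these values was not tested on its own. The 7 in FL against ML, all higher in FL (50% of the 14, where 7.59% of all genes were higher), became 1 when a surrogate variable was fitted and 2 when FL 5 was left out. Over all genes the 2964 at such a p, in either direction, became 270 with that variable and also fell without FL 5.

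Other imprinted genes outside the 44 were read from the same fit. Of 35 listed, 34 were in the table and 21 were tested. At an unadjusted p under 0.05 there were 2 in FL against control, 1 in ML against control and 5 in FL against ML, and none passed. These are 9.52%, 4.76% and 23.8% of the 21, against 3.53%, 16.1% and 20% of all genes. Their medians were -0.11, -0.24 and -0.18, and those of all genes -0.049, -0.047 and 0.041. Cobl, which nucleates actin and lies beside Grb10, averaged 32.4 ± 11.2 CPM in FL (SD, n = 3), 18.9 ± 6.01 CPM in controls (SD, n = 4) and 13.5 ± 3.32 CPM in ML (SD, n = 3). It was at 0.78 (SE 0.34) in FL against control and 1.27 (SE 0.37) in FL against ML, adjusted p 0.9997 and 0.238 by edgeR. Tfpi2, a protease inhibitor, was at -0.99 (SE 0.40) in FL against control. It had 141.7, 49.75, 52.63 and 66.66 CPM in controls and 29.15, 36.92 and 51.05 CPM in FL. Control 1 was far above the rest, and FL 7 lay among the controls. Dhcr7, the last enzyme of cholesterol synthesis, was at -1.45 (SE 0.38) in ML against control, with 56.8, 73.9, 117 and 77.4 CPM in controls and 45.7, 25.2 and 18.4 CPM in ML, without overlap.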

How the data were processed

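Liver polyA RNA of 10 libraries (4 control, 3 FL, 3 ML) was prepared with a directional kit and sequenced from both ends, per the labels' protocols. The values in the deposited table are raw read counts of genes, and the authors used STAR, featureCounts and GRCm38, per the submitters' processing notes. The tools' versions, the gene annotation and the strand option were not given in the sources used here.

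Of 46071 gene rows, 45229 matched GENCODE M21 for symbols, coordinates and exon length, and the 842 others held at most 0.0659% of a library. Tests used edgeR 4.0.16 (R 4.3.3): TMM, filterByExpr with a minimum count of 10, and the two-sided quasi-likelihood F test with robust dispersion over all 10 libraries, with 1 coefficient per group. This left 14820 genes, 7 residual degrees of freedom and a common biological coefficient of variation of 0.448. A gene passed at a Benjamini-Hochberg adjusted p under 0.05 over all genes. The SE is the size of the log2 fold change divided by the square root of F. The procedure was tested on simulated counts. Alternatives were DESeq2 1.42.0, limma-voom 3.58.1, a surrogate variable (sva 3.50.0), offsets that take out each library's trend with gene length and GC, other factors and filters, the compared groups alone, and leaving out libraries. The recount of imprint maintenance genes under each was added after seeing the data. Promoter windows are from RefSeq, GRCm38.p6.

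The members, lists and alternatives were chosen with earlier results of these data known. Named were Nnat, Grb10, members at an unadjusted p under 0.05 or without overlap between groups, those fixed by role (Igf2, H19, Dlk1, Meg3, Igf2r) and the 5 highest per kb; other values, such as Ddc or Blcap, are given as context.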

Additional observations from a re-analysis of the deposited data

Results flagged for a closer look

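Among the 32 tested members, 4 had 1 control library apart from the other 3 by a gap above Dixon's 95% critical share of the range of the controls. H13 was at 58.1 CPM in control 1 and at 107 to 111 CPM in the other controls. Ndn was at 2.11 CPM in control 1 and at 0.891 to 0.906 CPM in the others. Commd1 was at 61.5 CPM in control 1 and at 17.5 to 19.3 CPM in the others. Ddc was at 74.4 CPM in control 4 and at 31.5 to 36.0 CPM in the others. Chance sets apart about 1 in 20 such groups. The same count was not made over all genes tested, so 4 of 32 is not a result about imprinted genes. For H13, Ndn and Commd1 the library was control 1, which has the lowest total count. Over all genes, control 1 was the lowest of the 10 libraries for 16.3% and the highest for 10.6%.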

How the results depend on the processing

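No member passed under any of the 20 alternatives in any comparison. Numbers of all genes that passed did move. FL against control went from 2 to 1 with no low-count filter, 52 with DESeq2, 1 with limma-voom and 0 to 3 with a library left out. ML against control went from 0 to 3 with no filter, 46 with DESeq2 and 0 to 1 with a library left out. FL against ML went from 1 to 2 with no filter, 248 with DESeq2, 0 with each library's trend with gene length and GC taken out, 0 with only the compared groups, and 0 to 2 with a library left out. The cause was not tested.

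Of the 8 members followed through the alternatives in ML against control, 3 changed sign. Nnat (0.11) was at -0.74 with limma-voom, -0.090 with a surrogate variable, -0.36 with that trend taken out, -1.12 without control 1 and ML 9, and -0.88 to 0.86 with 1 library left out (-0.12 without control 1 and -0.12 without control 4). Grb10 (0.03) was at -0.070 without control 1 and ML 9, 0.71 with a surrogate variable, and -0.25 to 0.34 with 1 library left out (-0.20 without control 1). Commd1 (1.35) was at -0.049 with a surrogate variable. The cause was not tested. All other members at an unadjusted p under 0.05 kept their sign under every alternative that tested them. Depth limits Phlda2, Igf2, Airn, Plagl1, Ndn and Nnat, each with at most 48 counts in a library. No paired analysis was possible because the replicate numbers differ in every library and no groups share one.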

Other observations

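Genes that act with the imprinted growth genes were also read from the same fit. Of 11 partners of the IGF and insulin receptors, 9 were tested, none passed, and 4 were at an unadjusted p under 0.05 in ML against control (44.4%, against 16.1% of all genes). Irs2, the main insulin receptor substrate of liver, had 0.912, 12.8, 15.5 and 9.37 CPM in controls, 5.45, 2.75 and 4.05 CPM in FL and 1.16, 0.0652 and 2.08 CPM in ML. Its log2 fold change was -3.08 (SE 0.93) in ML against control, and control 1 lay among the ML libraries. Gigyf1, which binds GRB10, was at -2.21 (SE 0.76) and the insulin receptor gene Insr at -0.90 (SE 0.34). Insr had 62.85 to 128 CPM in controls, 59.3 to 77.6 CPM in FL and 54.4, 28.2 and 55.2 CPM in ML. Its ML libraries all lay below the controls, as in 2.86% of all genes. The Cre status of the offspring is not given, so Cre passed on by the LIRKO parent and other effects of that parent cannot be told apart. For Gigyf1, control 1 at 3.65 CPM lay within the ML range of 2.54 to 7.41 CPM. Igfbp2, a secreted IGF binding protein, was at 1.04 (SE 0.38). It had 356, 1127 and 682 CPM in ML against 275 to 473 CPM in controls, so ML 8 lay among the controls. This list was not recounted under the alternatives.

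Of 7 genes of fetal liver and its repressors, 4 were tested and none passed. Zbtb20, which represses Afp after birth, had 50.9 to 59.6 CPM in ML, 53.7 to 337 CPM in controls and 93.4 to 425 CPM in FL, at -1.80 (SE 0.60) in ML against control. Afp itself was at -0.33 (SE 0.53) in that comparison.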
